A study of Homo sapiens with 6 samples.

Results

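Alpha-fetoprotein (*AFP*), glypican-3 (*GPC3*) and insulin-like growth factor 2 (*IGF2*) are products of fetal liver that liver tumours often make again. They are described here with the oncofetal RNA-binding proteins *IGF2BP1*, *IGF2BP2*, *IGF2BP3* and *LIN28B* and with *ZBTB20* and *ZHX2*, repressors of *AFP*. The genes were taken from the table by symbol, and 9 of its 20026 genes were found. These 9 and the gene lists used below were chosen with earlier results of these data known. Their counts beside the shares of all genes are therefore a description and no independent comparison. RNA-seq was done on HepG2, a human cell line from a liver tumour, with 2 libraries in each of 3 groups. Scr cells, labelled wild type, had received the empty PX458 vector (Cas9 with GFP). The cells of both KO groups had received PX458 with a pair of sgRNAs flanking mature miR-23a or mature miR-27a, and colonies were taken after sorting of single GFP-positive cells. The colonies were checked by qPCR and Sanger sequencing, but these libraries hold no miRNA values, so the groups rest on the sample titles. The 2 miRNAs lie on 1 primary transcript together with miR-24-2, so lower or higher levels of the other miRNAs of that transcript cannot be told apart from loss of the deleted one, in either KO group or between them. The labels do not say whether the libraries of a KO group came from separate clones or cultures, so p-values measure only the spread between libraries, which may be technical. A trait of a clone and an effect of the deletion cannot be told apart in this design.

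*AFP* is the main serum protein of the fetal liver and is silenced after birth, when its neighbour *ALB* stays active. ZBTB20 and ZHX2 are zinc finger and homeobox proteins that keep *AFP* low in the adult liver, and loss of either in mice leaves *AFP* high. The IGF2BP proteins bind and stabilise mRNAs, *IGF2* among them. LIN28B blocks the maturation of let-7 miRNAs, which in turn repress the mRNAs of *LIN28B* and of the IGF2BP family.

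The libraries had the expression of hepatocyte-like tumour cells. All 13 hepatocyte markers were detected in each library, and their summed level was 36720 and 42210 CPM (counts scaled to a common library size, with TMM factors) in Scr, 41760 and 32850 with miR-23a deleted, and 35060 and 34960 with miR-27a deleted. *SERPINA1* was the most abundant of them in 4 libraries and *ALB* in the remaining 2, Scr replicate 2 and miR-23a KO replicate 2. The 6 immune markers summed to 535 and 561 CPM in Scr, 268 and 261 with miR-23a deleted, and 1606 and 1665 with miR-27a deleted. Nearly all of the level in miR-27a KO was *LYZ*, the lysozyme gene, at 1495 and 1558 CPM, while *PTPRC*, which every leukocyte expresses, was at most 0.134 CPM in any library and *CSF1R* was at 0 in both miR-27a KO libraries. *CD68*, another of the immune markers, was lower in miR-27a KO, at 107 and 103 CPM (Scr 159 and 151). Its log2 fold change was -0.58 (adjusted p = 0.0166, edgeR), just short of 1.5-fold. The 4 endothelial markers in the table summed to at most 6.97 CPM, mostly *PECAM1*, with *TEK* at 0 in 5 of the libraries. Of the fibroblast markers 2 were in the table. They summed to between 5.11 and 29.9 CPM, nearly all of it *PDGFRB*, and *COL1A1* was at 0 in 3 libraries. In miR-27a KO, where *AFP* and *IGF2* fell, *LYZ* rose by 1.96 and *PDGFRB* fell by 2.12 on the log2 scale against Scr (adjusted p = 0.00204 and 0.0166, edgeR). In bulk RNA, fewer cells of a type and less RNA per cell cannot be told apart.

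Total counts ranged from 14405250 to 16515261. How far the 2 libraries of a group lay apart set the precision of every value below. Of genes with 40 counts or more over a group's libraries, 6.68% differed over 2-fold between them in Scr, 1.35% in miR-27a KO but 47.8% in miR-23a KO. In miR-23a KO, 6 of the 9 were over 2-fold apart between the libraries, all 9 were higher in replicate 2, and the ratio reached 5.75 for *ZBTB20*. The share of all genes higher in replicate 2 was not counted, so this direction is not read as a trait of the 9. In Scr 2 of the 9 were over 2-fold apart, *IGF2* (2.59-fold) and *LIN28B* (2.24-fold). In miR-27a KO the largest ratio was 1.26, for *ZBTB20*.

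**Figure D1:**
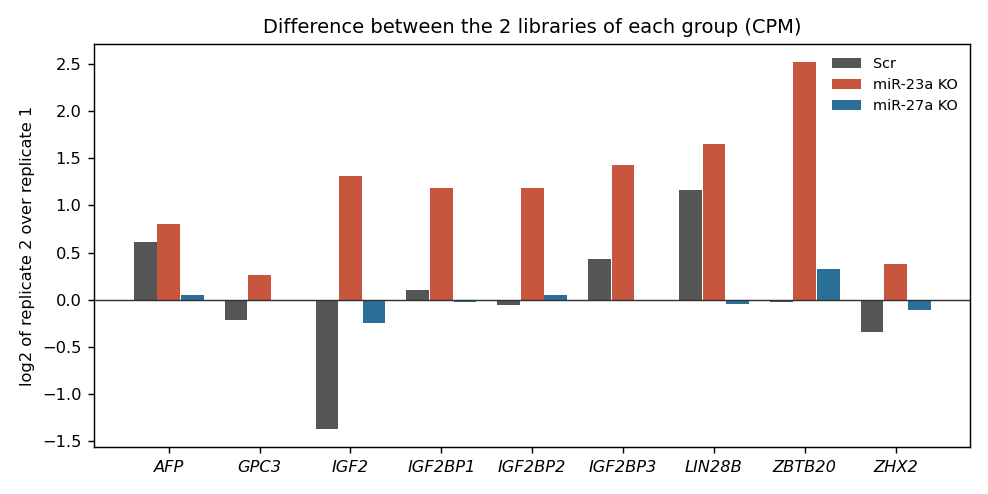
Log2 ratio of replicate 2 over replicate 1 in CPM for each of the 9 genes, with 1 bar per group. All miR-23a KO bars point up, to 2.52 for *ZBTB20*, the Scr bars point both ways, down to -1.37 for *IGF2*, and the miR-27a KO bars lie between -0.25 and 0.33.

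Because the deletions were aimed at 2 miRNAs, their mature sequences are given first, with the let-7a sequence that the LIN28B and IGF2BP genes are known to answer to. The sequences are from RefSeq (GRCh38.p14), 5′ to 3′, and capitals mark the seed, bases 2 to 8. The 3 seeds differ, so no 2 of them share a seed family. Mature miR-23a-3p lies at chr19:13836595-13836615 on the minus strand, miR-27a-3p at chr19:13836447-13836467 on the minus strand and let-7a-5p at chr9:94175962-94175983 on the plus strand.
miR-23a-3p: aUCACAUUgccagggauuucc
miR-27a-3p: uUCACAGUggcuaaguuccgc
let-7a-5p: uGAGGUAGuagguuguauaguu

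Exact matches to these seeds were looked for on the transcript strand in 3'-UTRs, taking the longest that GENCODE release 29 (GRCh38) gives a gene. All 9 genes had a 3'-UTR there. The miR-27a-3p match ACTGTGA was found in *IGF2BP3* (1), *LIN28B* (2) and *ZBTB20* (4), and in 16.6% of 15860 3'-UTRs. The miR-23a-3p match AATGTGA was found in *IGF2BP1* (1), *LIN28B* (1) and *ZBTB20* (2), and in 19.3% of all 3'-UTRs. The let-7a match CTACCTC was found in *IGF2BP1* (4), *LIN28B* (4), *IGF2BP2* (1), *IGF2BP3* (1) and *ZBTB20* (1), and in 10.4% of all 3'-UTRs. *AFP*, *GPC3*, *IGF2* and *ZHX2* held none of the 3. The 3'-UTR of *ZBTB20* is 24504 bases long and that of *GPC3* 379, and longer ones have more room for a match. A match is a description of the sequence only. For *LIN28B*, *IGF2BP3* and *IGF2BP1*, the match nearest the stop codon for each miRNA is given with 11 bases on either side and the match in capitals, on GRCh38.
LIN28B, miR-27a-3p match, chr6:105078890-105078918, plus strand: actattggggaACTGTGAattttttaaac
IGF2BP3, miR-27a-3p match, chr7:23310976-23311004, minus strand: taatttgaatgACTGTGAaaacatatgac
LIN28B, miR-23a-3p match, chr6:105080609-105080637, plus strand: tgacgatattgAATGTGAtatagctgtag
IGF2BP1, miR-23a-3p match, chr17:49052370-49052398, plus strand: acagtacctgaAATGTGAttgttgcagtg
LIN28B, let-7a-5p match, chr6:105078816-105078844, plus strand: ggttgcaaagtCTACCTCatgcaagtata
IGF2BP3, let-7a-5p match, chr7:23311785-23311813, minus strand: tttttactcaaCTACCTCaggtattcagt
IGF2BP1, let-7a-5p match, chr17:49051065-49051093, plus strand: tgcgaagtaaaCTACCTCaaggtatgaag

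The genes were compared with Scr in each KO group. In miR-27a KO cells *AFP* and *IGF2* fell against Scr, by 17.3-fold and 4.55-fold, and the other 7 genes did not pass the test. A call needed a fold change over 1.5 and a Benjamini-Hochberg adjusted p under 0.05 over 13820 genes. By this rule 2 of the 9 genes were called lower, where 6.74% of all tested genes were, and 0 were called higher, where 3.52% were. At an adjusted p under 0.001, the threshold of the study, 0 of the 9 were called, and 0.0145% of all genes in each direction. With no overlap the miR-27a KO pair was below the Scr pair for 4 of the 9 (*AFP*, *IGF2*, *IGF2BP1*, *ZBTB20*), against 31.0% of all genes, and above it for 2 (*IGF2BP2*, *IGF2BP3*), against 33.4%. The median log2 fold change of the 9 was -0.23, against 0.01 for all genes tested.

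In miR-23a KO against Scr, 0 of the 9 genes were called in either direction by the edgeR quasi-likelihood fit, and the same held for all 13786 genes tested (0% higher and 0% lower). At an unadjusted p under 0.05, 1 of the 9 passed, *LIN28B*, with 332 of all genes, and DESeq2 called 0 of the 9 and 63 of all genes. *LIN28B* alone among the 9 was above both Scr libraries in both miR-23a KO libraries, against 9.91% of all genes, and *GPC3* alone was below them, against 13.7%. The median log2 fold change of the 9 was 0.32, against 0.16 for all genes.

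The KO groups were also compared with each other, which tests whether they differ without the Scr libraries that both comparisons above share. In miR-23a KO against miR-27a KO, 0 of the 9 were called, as were 0% of 13841 genes in each direction by edgeR, with 3 of the 9 at an unadjusted p under 0.05 (*AFP*, *IGF2*, *LIN28B*) and 1207 of all genes. DESeq2 called these 3 genes higher in miR-23a KO, with 476 genes called in all. With no overlap the miR-23a KO pair was above the miR-27a KO pair for the same 3 genes, against 19.7% of all genes, and below it for *GPC3*, against 19.9%.

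**Figure D2:**
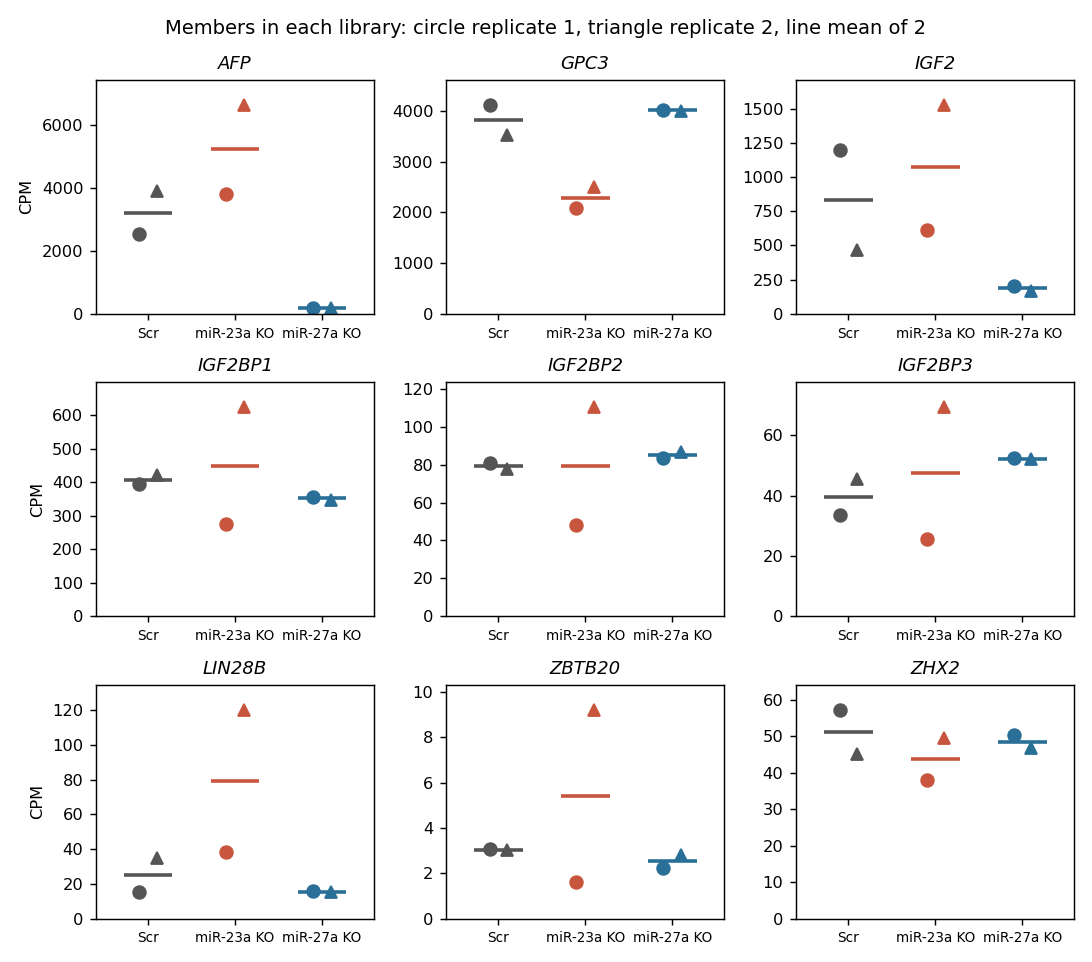
CPM of each of the 9 genes in each library, with replicate 1 as a circle, replicate 2 as a triangle and the mean of 2 as a line; each panel has its own axis from 0. *AFP* and *IGF2* are lowest in miR-27a KO (184 and 191 CPM, 202 and 170 CPM), *GPC3* is lowest in miR-23a KO (2086 and 2496 CPM), and *LIN28B* is highest in miR-23a KO.

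Among the secreted and surface proteins, *AFP* (gene 174, chr4:73431138-73456174 on the plus strand of GRCh38) was at 2547 and 3891 CPM in Scr, 3825 and 6643 with miR-23a deleted, and 184 and 191 in miR-27a KO. The miR-27a KO libraries were the lowest by a wide margin and nearly equal, while miR-23a KO replicate 1 fell just short of Scr replicate 2, so those groups overlapped. In miR-27a KO *AFP* fell by 4.11 on the log2 scale (standard error, SE, 0.23, adjusted p = 0.00262 in the edgeR quasi-likelihood fit), with both libraries below both Scr libraries. Only 110 of the 13820 genes tested had a lower log2 fold change. Leaving out any single library gave values from -4.38 to -3.78, all called, and the 7 other alternatives called *AFP* too, with adjusted p from 4.88e-111 (DESeq2) to 0.0366 (edgeR). In miR-23a KO the log2 fold change of *AFP* was 0.75 (SE 0.59, adjusted p = 1.00, edgeR). It was 0.23 without miR-23a KO replicate 2, 1.08 without Scr replicate 2, and after correction for GC content and length 0.33, and was not called in any alternative. Between the KO groups it was 4.78 (SE 0.52, adjusted p = 0.0961, edgeR), and 5 of 7 alternatives placed that difference under 0.05, with adjusted p from 3.65e-18 to 0.0988.

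*ALB*, the albumin gene that lies next to *AFP* on chromosome 4 (73397114 to 73421412, plus strand), was at 10250 and 15020 CPM in Scr, 7934 and 14890 with miR-23a deleted, and 2087 and 2147 with miR-27a deleted. It fell with *AFP* in miR-27a KO, by 2.59 on the log2 scale (SE 0.20, adjusted p = 0.00538, edgeR). Within each library the *AFP* count was 0.248 and 0.259 of the *ALB* count in Scr, 0.482 and 0.446 with miR-23a deleted, and 0.0884 and 0.0891 with miR-27a deleted. This ratio differed by less within each pair of libraries than between any 2 groups, also in miR-23a KO, where the *AFP* level itself was 1.74-fold apart between the libraries. The ratio was not tested. The other genes of the cluster were barely detected, *AFM* at 0.0764 to 1.08 CPM and *GC* at 0 to 0.672 CPM. *AFM* had 12 and 18 counts in miR-27a KO (Scr 2 and 5), above both Scr libraries and not called (adjusted p = 0.111, edgeR).

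Because *AFP* and *ALB* both fell in miR-27a KO, their promoters are given, 250 bases before to 50 after the start in RefSeq (GRCh38.p14), both on the plus strand, *AFP* at chr4:73435971-73436270 and *ALB* at chr4:73404037-73404336. Capitals mark matches on either strand to the C/EBP word TTGCNNAA and to the TATA box TATAAA. Of 35116 promoters, 10.5% held TTGCNNAA and 11.5% TATAAA. In *AFP*, counted from the start, TTGCNNAA lies at -221 and TATAAA at -29. In *ALB*, TTGCNNAA lies on the opposite strand at -125. Other words searched and not capitalised were CCAAT (34.6% of promoters), at -125 and 18 in *AFP* and at -86 and -44 in *ALB*, the FOXA word TGTTTNC (18.0%), at -176 in *ALB*, and the nuclear receptor word AAGGTCA (3.92%), found in neither. A match says nothing of binding in these cells. A promoter entry was found for 5 of the 9 genes, *AFP*, *IGF2BP2*, *IGF2BP3*, *LIN28B* and *ZBTB20*.
AFP: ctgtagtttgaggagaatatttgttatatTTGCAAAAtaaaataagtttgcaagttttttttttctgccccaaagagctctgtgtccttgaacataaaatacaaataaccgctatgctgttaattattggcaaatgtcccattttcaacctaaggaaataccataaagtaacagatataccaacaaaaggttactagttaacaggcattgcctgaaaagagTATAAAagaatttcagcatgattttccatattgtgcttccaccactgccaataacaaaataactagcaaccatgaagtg
ALB: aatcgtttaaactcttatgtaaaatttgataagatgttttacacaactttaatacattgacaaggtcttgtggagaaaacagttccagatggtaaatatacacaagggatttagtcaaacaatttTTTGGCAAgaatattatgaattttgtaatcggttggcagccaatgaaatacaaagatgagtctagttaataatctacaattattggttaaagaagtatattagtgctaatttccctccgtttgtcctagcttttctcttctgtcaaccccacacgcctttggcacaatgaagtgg

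*GPC3*, a heparan sulfate proteoglycan of the cell surface on the X chromosome (133535745 to 133985895, minus strand), was at 4121 and 3534 CPM in Scr, 2086 and 2496 with miR-23a deleted, and 4022 and 4006 with miR-27a deleted. Both miR-23a KO libraries were below all other libraries, and the miR-27a KO libraries lay between the Scr libraries. The log2 fold change was -0.70 in miR-23a KO (SE 0.52, adjusted p = 1.00) and 0.05 in miR-27a KO (SE 0.12, adjusted p = 0.801, both edgeR). Between the KO groups it was -0.82 (SE 0.39, adjusted p = 0.683, edgeR), and from -0.95 to -0.72 with 1 library left out. Without miR-23a KO replicate 2 the value in miR-23a KO was -0.90 with an edgeR adjusted p of 0.0298. The *GPC3* count was 1.62 and 0.908 times the *AFP* count in Scr, 0.545 and 0.376 times with miR-23a deleted, and 21.8 and 20.9 times with miR-27a deleted.

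*IGF2*, a growth factor of the fetus (gene 3481, chr11:2129112-2149603, minus strand), was at 1201 and 463 CPM in Scr, 616 and 1528 with miR-23a deleted, and 202 and 170 with miR-27a deleted. The miR-27a KO libraries were below all others, and the Scr and miR-23a KO libraries overlapped over a wide range. In miR-27a KO *IGF2* fell by 2.18 on the log2 scale (SE 0.45, adjusted p = 0.0379, edgeR). That call was lost with no filter on low counts (adjusted p = 0.0719), in a fit of all 6 libraries (0.317) and without miR-27a KO replicate 2 (0.0620, all edgeR), and held in 6 of 8 alternatives other than leaving out a library. The log2 fold change ranged from -2.71 without Scr replicate 2 to -1.32 without Scr replicate 1. In miR-23a KO it was 0.42 (SE 0.67, adjusted p = 1.00, edgeR). Between the KO groups it was 2.51 (SE 0.57, adjusted p = 0.242, edgeR), called in 2 of 8 alternatives with adjusted p from 0.000519 to 0.290. *INS-IGF2*, a readthrough gene that overlaps *IGF2*, was at 1686 and 626 CPM in Scr, 760 and 1876 with miR-23a deleted, and 293 and 304 with miR-27a deleted. Reads of the shared exons could be divided between these genes in the counting, so both levels are uncertain. With their counts summed, an alternative chosen after seeing the data, the value in miR-27a KO was -2.06 (adjusted p = 0.0434, edgeR). *H19*, which shares an imprinted domain with *IGF2*, was at 3.56 CPM in Scr replicate 1, 0.120 in miR-27a KO replicate 2 and 0 in the other libraries.

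**Figure D3:**
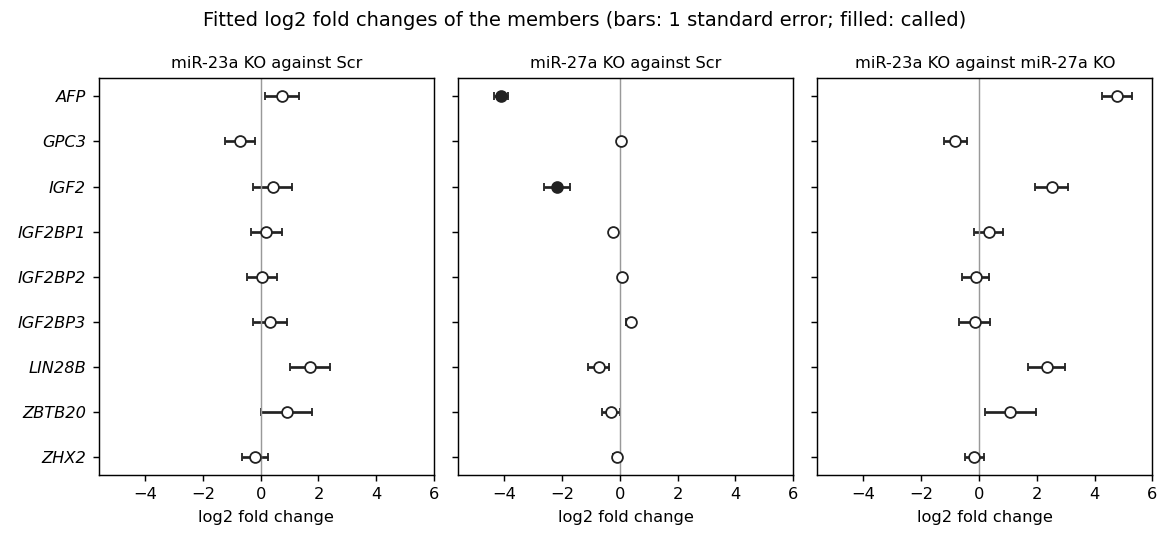
Fitted log2 fold change of each of the 9 genes in the 3 comparisons, with bars of 1 standard error; filled points were called. *AFP* (-4.11) and *IGF2* (-2.18) in miR-27a KO against Scr are the filled points, and the bars are wider in both comparisons that hold the miR-23a KO libraries.

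The RNA-binding proteins did not pass the test in any of the 3 comparisons. *LIN28B* (gene 389421, chr6:104936616-105083332, plus strand) was at 15.7 and 35.1 CPM in Scr, 38.2 and 120 with miR-23a deleted, and 15.7 and 15.2 with miR-27a deleted. Both miR-23a KO libraries were above all others, but they were 3.15-fold apart, and replicate 1 exceeded Scr replicate 2 by little. In miR-23a KO the log2 fold change of *LIN28B* was 1.71 (SE 0.69, unadjusted p = 0.0373, adjusted p = 1.00, edgeR), and 111 of 13786 genes had a higher one. It ranged from 0.57 to 2.39 with 1 library left out, and without miR-23a KO replicate 1 it was 2.24 with an edgeR adjusted p of 0.0361. In miR-27a KO it was -0.73 (SE 0.37, adjusted p = 0.242, edgeR), from -0.04 without Scr replicate 2 to -1.18 without Scr replicate 1, where it was called (adjusted p = 0.000241, edgeR). It was also called with GC content and length corrected and a replicate block (-0.84, adjusted p = 0.0230, edgeR), 1 of 7 alternatives, whose adjusted p ranged up to 0.991. Between the KO groups it was 2.34 (SE 0.63, adjusted p = 0.339, edgeR), called in 3 of 7 alternatives with adjusted p from 0.000730 to 0.394.

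*IGF2BP1* was at 394 and 422 CPM in Scr, 275 and 624 with miR-23a deleted, and 356 and 348 with miR-27a deleted. *IGF2BP2*, the form that adult tissues also make, was at 80.8 and 77.7 CPM in Scr, 48.2 and 110 with miR-23a deleted, and 83.5 and 86.5 with miR-27a deleted. *IGF2BP3* was at 33.7 and 45.5 CPM in Scr, 25.8 and 69.2 with miR-23a deleted, and 52.4 and 52.1 with miR-27a deleted. For all 3 genes, miR-23a KO replicate 1 was below both Scr libraries and replicate 2 above both, so no direction could be read there. Their log2 fold changes in miR-23a KO were 0.19, 0.05 and 0.32, and without replicate 2 each was negative (-0.59, -0.74 and -0.64), with *IGF2BP2* then called lower (adjusted p = 0.0417, edgeR). In miR-27a KO both *IGF2BP1* libraries were below and both *IGF2BP3* libraries above Scr, with log2 fold changes of -0.23 (SE 0.08, adjusted p = 0.119) and 0.38 (SE 0.16, adjusted p = 0.165), while *IGF2BP2* was at 0.08 (SE 0.08, adjusted p = 0.546, all edgeR). The value of *IGF2BP3* was 0.20 without Scr replicate 1 and 0.61 without Scr replicate 2, where it was called higher (adjusted p = 0.000695, edgeR), and 0.18 with GC content and length corrected.

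Neither repressor was called in any comparison. *ZHX2* was at 57.3 and 45.2 CPM in Scr, 38.0 and 49.5 with miR-23a deleted, and 50.3 and 46.7 with miR-27a deleted. The miR-27a KO libraries lay between the Scr libraries. The log2 fold change of *ZHX2* was -0.10 in miR-27a KO (SE 0.15, adjusted p = 0.684) and -0.19 in miR-23a KO (SE 0.46, adjusted p = 1.00, both edgeR), and with GC content and length corrected these were 0.03 and 0.02. *ZBTB20* was nearly silent, with counts of 45 and 45 in Scr, 21 and 168 with miR-23a deleted, and 37 and 47 with miR-27a deleted. In CPM this was 3.08 and 3.02, 1.60 and 9.22, and 2.24 and 2.83. The miR-27a KO libraries were the lower in CPM by little, and the miR-23a KO libraries lay on both sides of Scr. The log2 fold change of *ZBTB20* was -0.29 in miR-27a KO (SE 0.31, adjusted p = 0.575) and 0.90 in miR-23a KO (SE 0.88, adjusted p = 1.00, both edgeR). The latter was -0.95 without miR-23a KO replicate 2. With GC content and length corrected, *ZBTB20* was at -0.58 in miR-27a KO and 0.27 in miR-23a KO. GENCODE annotates antisense genes at *ZBTB20*, *IGF2*, *LIN28B* and *IGF2BP2*, and whether the counting used strand is not given in the sources used here, so reads of such partners cannot be told apart.

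Levels of different genes were compared per length, in CPM per kb of the longest coding transcript. In Scr *GPC3* was at 1490 ± 162 (SD, n = 2) and *AFP* at 1296 ± 383, and these overlapped. *IGF2* followed at 149 ± 93.4, *IGF2BP1* at 49.3 ± 2.39, *IGF2BP2* at 21.5 ± 0.600, *ZHX2* at 11.1 ± 1.85, *IGF2BP3* at 9.31 ± 1.95, *LIN28B* at 4.61 ± 2.49 and *ZBTB20* at 0.112 ± 0.00144 CPM per kb. *ZHX2* and *IGF2BP3* overlapped in Scr, and the other neighbours in this order did not. The value of *ZBTB20* rests on a transcript of 27125 bases. In miR-27a KO *AFP*, at 75.7 ± 1.99 CPM per kb, was far below *GPC3* (1563 ± 4.41). As counted, *IGF2* (33.3 ± 4.03) was below *IGF2BP1* (42.6 ± 0.649) there with no overlap. This *IGF2* value leaves out reads given to *INS-IGF2*, at a mean of 298 CPM in miR-27a KO against 186 for *IGF2*. The order of *IGF2* and *IGF2BP1* is thus uncertain. In miR-23a KO *AFP* (2107 ± 802 CPM per kb) was above *GPC3* (892 ± 113) in each library. By CPM per kb *AFP* held place 54 and 19 among 17908 genes in the Scr libraries, 48 and 3 with miR-23a deleted, and 985 and 951 with miR-27a deleted.

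**Figure D4:**
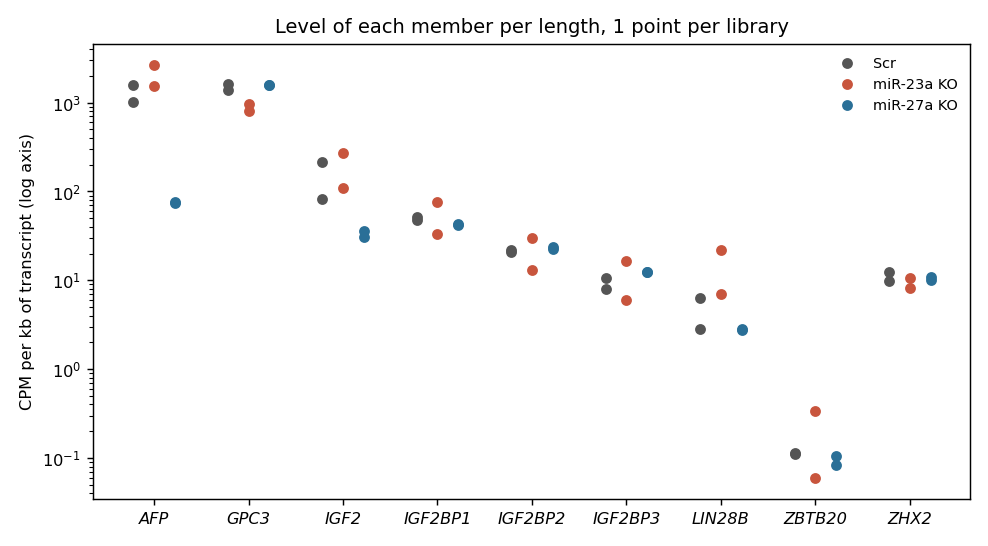
CPM per kb of transcript for each gene, on a log axis, with 1 point per library coloured by group. *GPC3* and *AFP* share the top level in Scr, at 1490 and 1296 on average, the *AFP* points of miR-27a KO lie near 75.7, and *ZBTB20* lies lowest at about 0.112 in Scr.

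Genes around the 9 were read from lists by function, with 6.74% of all genes tested called lower in miR-27a KO and 3.52% higher. Of 15 factors known to act at the *AFP* promoter and enhancers that are reported here, 1 was called lower in miR-27a KO and 0 higher, with a median of -0.36 (0.01 for all genes). Both libraries were below both Scr libraries for 9 of the 15, against 31.0% of all genes, and above them for 1, against 33.4%. *NR5A2*, the called factor, a nuclear receptor that activates *AFP*, had 61 and 118 counts in Scr, 130 and 222 with miR-23a deleted, and 0 and 2 with miR-27a deleted, and it fell in miR-27a KO (adjusted p = 0.0141, edgeR). *HNF4A*, at 411 and 420 CPM in miR-27a KO (Scr 335 and 360), was not called. *CEBPB* was at 65.7 and 65.3 CPM in miR-27a KO (Scr 194 and 98.9), with a log2 fold change of -1.18 (adjusted p = 0.0678, edgeR). The others below Scr, none of them called, were *FOXA1* (-0.60), *FOXA2* (-0.45), *FOXA3* (-0.51), *CEBPA* (-0.28), *NR2F2* (-0.36), *ONECUT2* (-0.58) and *NFIC* (-0.49). In miR-23a KO 0 of the 15 were called.

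Of 6 other repressors and relatives of ZHX2 and ZBTB20, 1 was called in miR-27a KO. *ZFHX3*, also named ATBF1, an enhancer-binding repressor of *AFP*, rose on the log2 scale by 0.78 (SE 0.14, adjusted p = 0.0276, edgeR), at 38.5 and 33.9 CPM against 19.6 and 22.2 in Scr. In miR-23a KO it was at 5.50 and 24.6 CPM, on both sides of Scr. *ZHX1* was barely detected, at 0 to 1.41 CPM, and *ZHX3* was at 35.7 and 33.8 CPM in miR-27a KO (Scr 32.3 and 42.3).

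In the IGF axis, 10 of 15 genes were tested in miR-27a KO, and 2 were called lower (6.74% of all genes) and 0 higher (3.52%), with a median of -0.33. These were *INS-IGF2*, which may share reads with *IGF2*, and *IGFBP4*, an IGF-binding protein, which fell by 0.70 (SE 0.15, adjusted p = 0.0429, edgeR). *IGFBP2* had a log2 fold change of -1.36 that was not called (adjusted p = 0.103, edgeR). The receptors were not called. *IGF1R* was at 36.0 and 25.1 CPM in Scr and 33.7 and 38.9 in miR-27a KO, and *IGF2R*, the receptor that clears IGF2, was at 448 and 398 CPM in Scr, 150 and 377 with miR-23a deleted, and 387 and 384 with miR-27a deleted. The *IGF2* count was 2.68 and 1.16 times the *IGF2R* count in Scr, 4.09 and 4.06 times with miR-23a deleted, and 0.521 and 0.443 times with miR-27a deleted. This ratio did not overlap between the groups, though the *IGF2* level did between Scr and miR-23a KO, and it was not tested. *IGF2* and *IGF2R* were each higher in miR-23a KO replicate 2 than in replicate 1, by 2.48-fold and 2.50-fold. The *IGF2* count leaves out reads given to *INS-IGF2*, whose count was the higher in every library. The size of the ratio is therefore uncertain.

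In the LIN28 and let-7 axis, 14 genes were found and 13 of them were tested in miR-27a KO. Of the tested genes 4 were called lower (6.74% of all genes) and 0 higher (3.52%), with a median of 0.09. *HMGA1*, *ARID3A*, *E2F5* and *CCND2*, among them known let-7 targets, fell by 0.79 (adjusted p = 0.0366), 0.65 (0.0273), 0.66 (0.0232) and 1.64 (0.0297, all edgeR). *HMGA2*, the best-known let-7 target of this list, was at 201 and 226 CPM in Scr, 120 and 405 with miR-23a deleted, and 232 and 235 with miR-27a deleted, with a log2 fold change of 0.11 in miR-27a KO that was not called. *LIN28A*, the paralog of *LIN28B*, was at 0 in 5 libraries and at 0.0684 CPM in Scr replicate 1.

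Of 18 genes for glypicans and heparan sulfate, 14 were tested in miR-27a KO, with 2 called lower (6.74% of all genes), 0 higher (3.52%) and a median of -0.10. *GPC1* fell by 1.35 (SE 0.18, adjusted p = 0.0156, edgeR), from 43.1 and 33.2 to 16.2 and 14.2 CPM, and was at 15.3 and 5.32 in miR-23a KO. *SULF2*, a sulfatase that trims heparan sulfate, fell by 1.80 (SE 0.35, adjusted p = 0.0335, edgeR), from 8.82 and 5.71 to 1.82 and 2.40 CPM. *NOTUM*, a Wnt-inactivating enzyme that binds glypicans, was at 534 and 527 CPM, between the Scr values of 540 and 385.

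Of 18 other oncofetal and liver tumour markers, 13 were tested in miR-27a KO, with 1 called higher (3.52% of all genes), 4 lower (6.74%) and a median of 0.04. *DLK1*, a fetal membrane protein, was at 326 and 269 CPM in Scr, 285 and 89.2 with miR-23a deleted, and 0.666 and 0.902 with miR-27a deleted (adjusted p = 0.000522, edgeR). *SOX4* fell by 4.08 and *PEG10* by 2.07 on the log2 scale, with edgeR adjusted p of 0.00237 and 0.0156. *SPINK1* fell to 7 and 1 counts in miR-27a KO (Scr 56 and 66, adjusted p = 0.0242, edgeR). *EPCAM*, a marker of hepatic progenitors, rose on the log2 scale by 1.33 (SE 0.12, adjusted p = 0.00761, edgeR). The 13 hepatocyte markers, all tested, held 1 called higher (*TF*, 1.25) and 3 lower (*ALB*, *FGB* at -2.05 and *APOA2* at -0.70), with a median of -0.07. The counts thus ran both ways in these lists, and *AFP*, *ALB* and *DLK1* fell while *APOA1*, *AHSG*, *SERPINA1* and *GPC3* were not called.

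**Figure D5:**
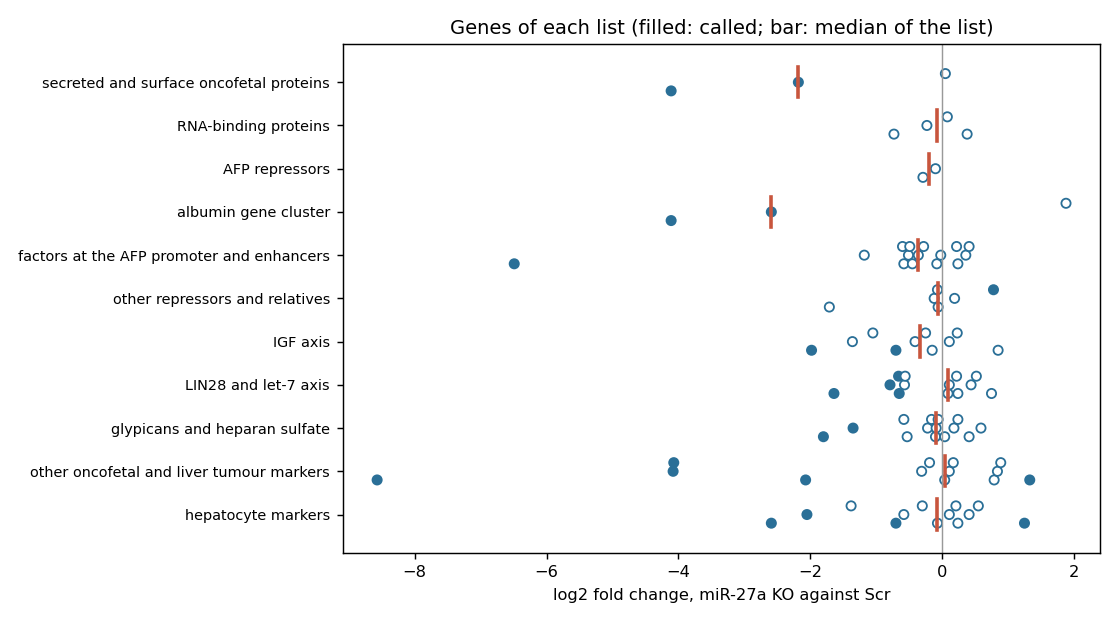
Log2 fold change in miR-27a KO against Scr of each tested gene in the lists of the 9, of the genes around them and of hepatocyte markers, with called genes filled and the median of each list as a bar. Called genes stand on both sides of 0 in 2 lists, from -8.57 for *DLK1* to 1.33 for *EPCAM*, and the medians of lists with more than 4 genes lie between -0.36 and 0.09.

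In the comparisons with miR-23a KO no gene of these lists was called. *CD24* had a log2 fold change of -3.92 against Scr (adjusted p = 0.366, edgeR), at 1.15 and 2.58 CPM against 35.2 and 24.2, with no overlap.

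The 3 genes most like each of the 9 were found by Pearson's r of log2 CPM over the 6 libraries, among 9021 genes with a mean of at least 10 CPM. These r values describe 6 libraries of 3 groups. For *AFP* they were *PROM1* (r = 0.999), *CREB3L3* (0.996) and *CPED1* (0.991). *PROM1* was at 16.0 and 21.6 CPM in Scr, 22.9 and 61.7 with miR-23a deleted, and 0 in both miR-27a KO libraries. For *GPC3* they were *ST6GAL1* (0.999), *ALDH18A1* (0.997) and *PPT1* (0.996), each lowest in miR-23a KO, as *PPT1* at 74.3 and 113 CPM against 242 and 198 in Scr. For *IGF2* they were *INS-IGF2* (0.993), which overlaps it, *SMARCA4* (0.982) and *MATN3* (0.977). Among those of *LIN28B* were *SSR3* (0.990) and *CPB2* (0.989). The genes most like *IGF2BP1* (*CHAMP1*, *LARP4B*, *HPS3*), *IGF2BP2* (*CDC42SE2*, *ARFGAP3*, *RELN*), *IGF2BP3* (*PBRM1*, *LEMD3*, *MBNL3*) and *ZBTB20* (*SGCE*, *ENTPD1-AS1*, *TP53BP1*) all shared the gap between the miR-23a KO libraries, with replicate 1 lowest and replicate 2 highest of the 6. *KDM1A* (0.986), *GABARAPL1* (0.981) and *QSOX2* (0.981) were closest to *ZHX2*. Among the 9, r was 0.97 for *IGF2BP1* with *ZBTB20*, 0.91 for *IGF2BP2* with *IGF2BP3* and 0.88 for *AFP* with *IGF2*, and lowest at -0.76 for *GPC3* with *LIN28B*.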

How the data were processed

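Per the labels and the study's methods, RNA from 6 HepG2 libraries was sequenced in 3 groups. The authors deposited 1 table of estimated counts (expected counts) per gene, not scaled for depth or length. Its column names say FPKM, but the columns sum to different totals and 42.6% to 51.0% of the values are exact whole numbers, zeros included, or 34.5% to 40.8% of those above 0. That they are counts was read from these values and is not stated in the labels. All 6 value columns matched a sample (0 left over). Library totals (replicate 1, replicate 2) were 14891239, 14405250 for Scr, 16515261, 15930779 for miR-23a KO, and 15850589, 15947308 for miR-27a KO. The submitters' processing notes name HISAT, StringTie, Cufflinks and GATK without roles, and the counting tool and genome build are not given in the sources used here. The labels name a TruSeq kit without strand and the study's methods a stranded one, so whether strand was used is unknown. Some labels do not describe HepG2 cells, and the titles were followed.

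Counts were rounded. Genes were filtered with filterByExpr, scaled by TMM and tested over all genes with glmQLFit and glmQLFTest, each pair of groups alone (R 4.3.3, edgeR 4.0.16), with Benjamini-Hochberg adjustment over all genes tested. All 9 genes described passed the filter in each comparison. CPM used TMM factors over the 6 libraries, between 0.792 and 1.14, and log2 CPM a prior count of 2. Lengths, GC content, positions and 3'-UTRs came from GENCODE release 29, in which 17908 genes (89.4%) were matched. miRNA and promoter sequences came from RefSeq (GRCh38.p14), and the motif words were chosen with the *AFP* promoter in view.

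The genes described and the lists were chosen with earlier results of these data known. Named genes were the 9, those of each list called in a comparison (or up to 3 with the largest changes), *ALB*, *H19*, *INS-IGF2*, *IGF1R* and *IGF2R* as reference levels, and for each of the 9 the 3 most like it; some genes that this rule gives are not reported here, for reasons other than their values, and 2 of these were taken out of the lists after the fits; further list genes were picked for mention with their values known. The workflow was tested on simulated data. The alternatives run were DESeq2 1.42.0, scaling by median ratios, unfiltered counts, 1 fit of all 6 libraries, a block for replicate number, a loess correction for GC content and length (span 0.5, degree 2), these last 2 together, and leaving out each library. Summing *IGF2* with *INS-IGF2* was added after seeing the data.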

Additional observations from a re-analysis of the deposited data

Results flagged for a closer look

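None of the 9 genes had both libraries of one KO group on one side of both Scr libraries and both of the other KO group on the opposite side. Of 96 genes of the lists, as given here, 7 did. Of all 13556 genes tested in both KO comparisons 782 did (5.77%). The difference itself was tested between the KO groups in edgeR, and 0 of these 7 passed an adjusted p under 0.05. The log2 differences were negative, with miR-23a KO lower, for *CD24* (-4.85, adjusted p = 0.0961), *LYZ* (-3.29, 0.101), *EPCAM* (-1.73, 0.173) and *DIS3L2* (-0.41, 0.810). They were positive for *NR5A2* (7.33, adjusted p = 0.101), *SPINK1* (4.98, 0.158) and *ARID3A* (0.93, 0.528, all edgeR). The values of *NR5A2* and *SPINK1* rest on miR-27a KO libraries with few or no counts (0 and 2, 7 and 1).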

How the results depend on the processing

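Of 192 log2 fold changes of the 9 genes under alternatives other than leaving out a library, 167 kept their sign and their side of the call, and of 108 with 1 library left out 79 did. *AFP* was called lower in miR-27a KO in all of them. Where a library is left out, the lone one is assumed to vary like the other group. The causes of the changes below were not tested.

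In miR-27a KO against Scr, 1418 genes were called (34.3% of them higher), 892 with no filter, 64 with all 6 libraries in 1 fit (4.69% higher), 1441 with GC content and length corrected (45.2% higher) and 334 to 3716 with 1 library left out (24.6% to 51.3% higher). Of the 9 genes 2 were called, 1 with no filter, 1 with all 6 libraries and 1 to 3 with 1 left out.

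In miR-23a KO against Scr, 0 genes were called, against 63 in DESeq2, 10 with no filter, 3 with all 6 libraries, 3 with GC content and length corrected and 4 to 2630 with 1 library left out, and 0 to 2 of the 9. In miR-23a KO against miR-27a KO, 0 genes were called, against 476 in DESeq2, 218 with all 6 libraries, 291 with GC content and length corrected and 72 to 7303 with 1 left out. Of the 9, 0 were called, against 3, 1 and 2 under these alternatives and 0 to 6 with 1 left out.

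Same-numbered deviations correlated at 0.27 (Scr and miR-23a KO), -0.03 (Scr and miR-27a KO) and 0.03 (the KO groups). A weak link by replicate number was thus seen for Scr and miR-23a KO only, and the main fits used no block. With the replicate block, 69, 1693 and 400 genes were called in the 3 comparisons as ordered here by miR-23a KO, miR-27a KO and their contrast, and 0, 2 and 1 of the 9. With GC content, length and the replicate block these were 31, 1736 (47.5% higher) and 819 genes and 0, 3 and 3 of the 9, with *LIN28B* the gene added in miR-27a KO.

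Signs turned in miR-23a KO against Scr for *IGF2BP1* (-0.07 with GC content and length corrected, -0.07 with the block too), *IGF2BP3* (-0.11 and -0.12), *ZHX2* (0.02 and 0.03) and *IGF2BP2* (-0.04 with all 6 libraries, -0.09 with the replicate block). In miR-27a KO *ZHX2* turned (0.03 and 0.04), and between the KO groups *IGF2BP2* (0.07 and 0.03). With 1 library left out the ranges crossed 0 in miR-23a KO for *IGF2* (-0.46 to 1.21), *IGF2BP1* (-0.59 to 0.61), *IGF2BP2* (-0.74 to 0.48), *IGF2BP3* (-0.64 to 0.81) and *ZBTB20* (-0.95 to 1.59), in miR-27a KO for *GPC3* (-0.06 to 0.18) and *ZHX2* (-0.26 to 0.10), and between the KO groups for *IGF2BP1* (-0.36 to 0.79), *IGF2BP2* (-0.82 to 0.34), *IGF2BP3* (-1.02 to 0.37) and *ZBTB20* (-0.66 to 1.82).

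Tests for FPKM were not run, since the values are estimated counts.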
